A study of Homo sapiens with 12 samples.

Results

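Of 100 accessible regions at the starts of proteasome and translation initiation factor genes, 1 passed the test in 1 of 6 comparisons between HCT116 lines. That fit had no term for replicate number, and the closing section gives the calls with one. The sums over all proteasome regions and over all EIF regions overlapped between EV and each other line. The regions were taken from an ATAC-seq count table, in which counts of reads mark DNA that a transposase could reach. A region belonged here if it lay on chromosomes 1 to 22 within 1000 bp of a GENCODE 44 transcription start of a protein-coding gene whose symbol begins with PSMA, PSMB, PSMC, PSMD or EIF, with PSMB8 and PSMB9 left out. This gave 100 of the 30170 regions of the table, 36 at proteasome genes and 64 at EIF genes. HCT116 is an established human colorectal carcinoma line, and all 12 libraries came from it, with 3 per group. EV cells carried an empty vector; the methods describe such a control for the EHF plasmid, selected by geneticin in the same way, so EV may itself be a selected clone. EHF cells were geneticin-resistant clones of cells transfected with a plasmid for EHF, an ETS-family transcription factor. CDX1 cells had been transduced with a retrovirus for CDX1, a caudal-type homeobox factor, and sorted on GFP. EHF+CDX1 cells were made from the CDX1 line by transfection with the EHF plasmid and selection of resistant clones. The EHF-carrying lines were therefore clonal selections, which the CDX1 line was not, and clone and factor cannot be told apart. The labels do not say that the libraries of a group came from separate cultures, so p-values measure the spread between libraries, which may be technical.

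The 26S proteasome degrades proteins that carry ubiquitin chains. PSMA and PSMB genes encode the subunits of its barrel-shaped 20S core, PSMC genes the ATPases of the 19S cap that unfold substrates, and PSMD genes the other cap subunits and some assembly factors. EIF genes encode the factors that bring the initiator tRNA and the mRNA to the small ribosomal subunit, find the start codon and join the subunits, together with the kinases and binding proteins that restrain them. Most of these are housekeeping genes, expressed in nearly every dividing cell.

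Library totals ran from 567366 to 2443334 counts, of which 502 to 3560 fell on the 100 regions (median count of a region, 4 to 27 by library). EHF+CDX1 replicate 2 stood apart, with 3560 counts on these regions and a TMM scaling factor of 2.62, against 0.346 to 1.57 in the other 11 libraries. Every library carried the exon counts of the factors that its label names, though the counts on both exon sets together were 169054 in EHF+CDX1 replicate 2 and 1305194 and 925637 in replicates 1 and 3. Of 5 epithelial marker genes, EPCAM, KRT8, KRT18 and KRT19 had regions at a start and CDH1 had none. Their summed raw counts per library were 18 to 39 for EV, 47 to 84 for EHF, 35 to 78 for CDX1 and 67 to 282 for EHF+CDX1. These counts are not scaled and do not compare the lines. TMM-adjusted library sizes ran from 665167 (EV replicate 3) to 4.43e+06 (EHF+CDX1 replicate 2). Of 8 markers of other cell types, 7 had none, and COL1A1 held 6 to 33 counts per library. Singly, the epithelial genes held 8 to 118 (EPCAM), 6 to 104 (KRT8), 0 to 26 (KRT18) and 4 to 34 (KRT19).

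At least 1 region was found for 68 of the 90 genes that the rule covers (75.6%), and for 9399 of all 19103 protein-coding genes of these chromosomes (49.2%). By family these were 6 of 8 PSMA, 4 of 9 PSMB, 5 of 7 PSMC, 11 of 13 PSMD and 42 of 53 EIF genes. No region lay at PSMB6 or PSMB7, which encode catalytic subunits of the core, at EIF4G1, the scaffold of the cap-binding complex, at EIF6, which keeps ribosomal subunits apart, or at PSMC3IP, a recombination factor that shares only its name with the ATPases. The absence of a region says that no peak was called, not that the start was closed. Of the 100 regions 69 covered a start base, and the median centre lay at -74 bp from it (median length 183 bp). In their own gene, 54 touched an untranslated part of an exon, 14 an exon with coding sequence and 6 an exon of a non-coding transcript, while 6 were intronic and 20 upstream. Another protein-coding gene started within 1000 bp of 36 regions, and for these the accessibility cannot be assigned to 1 gene. For 12 regions the start was not the one of the gene's canonical transcript.

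Promoter sequences of RefSeq (GRCh38.p14, 250 bases before to 50 after a start) were matched by symbol for 76 of the 90 genes, giving 99 promoters, of which 62 overlapped one of the 100 regions. The 8 stretches shown run from base -150 to base -1 before the start, on the strand of the gene. PSMA5, PSMB3, PSMC4 and PSMD14 stand for the 4 proteasome families, PSMB5 encodes a catalytic core subunit, and EIF1B and EIF2B4 come up in the comparisons, and EIF2B5 encodes the catalytic subunit of the eIF2 exchange factor. Capitals mark, on either strand, the letters of the ETS core CGGAAG, the CDX core TTTATG, the CCAAT box, the GC box GGGCGG, the NRF1 core GCATGCG, the YY1 core AAGATGG and the antioxidant-response type core TGACTCA. The YY1 and ETS cores can share letters, which 0 of the 99 promoters showed.
PSMA5, chr1:109426449-109426598, minus strand: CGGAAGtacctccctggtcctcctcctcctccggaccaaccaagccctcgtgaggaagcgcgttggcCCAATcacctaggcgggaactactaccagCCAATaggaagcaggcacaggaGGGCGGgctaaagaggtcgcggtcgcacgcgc
PSMB3, chr17:38752591-38752740, plus strand: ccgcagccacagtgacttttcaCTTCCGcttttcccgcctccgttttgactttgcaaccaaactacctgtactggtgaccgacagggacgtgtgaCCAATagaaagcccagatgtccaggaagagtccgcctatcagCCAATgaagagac
PSMC4, chr19:39971015-39971164, plus strand: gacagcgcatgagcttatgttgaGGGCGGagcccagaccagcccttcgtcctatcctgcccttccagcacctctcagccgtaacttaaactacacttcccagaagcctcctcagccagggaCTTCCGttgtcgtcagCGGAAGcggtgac
PSMD14, chr2:161308275-161308424, plus strand: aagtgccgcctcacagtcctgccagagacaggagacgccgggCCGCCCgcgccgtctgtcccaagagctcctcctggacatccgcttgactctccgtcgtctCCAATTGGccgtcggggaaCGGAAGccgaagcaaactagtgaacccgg
PSMB5, chr14:23034901-23035050, minus strand: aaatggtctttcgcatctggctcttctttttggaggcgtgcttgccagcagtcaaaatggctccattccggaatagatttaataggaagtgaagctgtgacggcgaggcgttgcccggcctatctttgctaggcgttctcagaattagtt
EIF1B, chr3:40309557-40309706, plus strand: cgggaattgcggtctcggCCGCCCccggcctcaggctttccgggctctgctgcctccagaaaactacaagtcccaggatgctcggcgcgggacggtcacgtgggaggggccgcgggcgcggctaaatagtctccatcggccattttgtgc
EIF2B4, chr2:27370339-27370488, minus strand: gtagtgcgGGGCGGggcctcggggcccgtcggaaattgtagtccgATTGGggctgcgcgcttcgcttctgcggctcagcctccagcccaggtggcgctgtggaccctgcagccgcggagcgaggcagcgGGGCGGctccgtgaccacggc
EIF2B5, chr3:184135208-184135357, plus strand: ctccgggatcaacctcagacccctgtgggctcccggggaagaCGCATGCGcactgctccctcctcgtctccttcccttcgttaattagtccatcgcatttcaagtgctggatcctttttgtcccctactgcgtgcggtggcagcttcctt

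The PSMC4 stretch holds the ETS core in both orientations, at bases -29 and -13, and those of PSMA5, PSMB3 and PSMD14 hold it once. The CCAAT box occurs 2 times in each of PSMA5 and PSMB3. In PSMD14 it is read on both strands in overlapping letters, from bases -48 and -45. The PSMB5 stretch has none of the 7 motifs. The EIF2B5 stretch holds the NRF1 core on both strands, in overlapping letters from bases -107 and -108. Among the 27 proteasome promoters under a region 18 (66.7%) held the ETS core, the DNA element of the EHF family, against 16 of 35 EIF promoters (45.7%) and 38.2% of the 7689 protein-coding promoters under any region. The YY1 core was found in 25.9% of the proteasome, 8.57% of the EIF and 8.08% of all those promoters. The GC box was in 74.1%, 74.3% and 75.8% of them, and the CCAAT box in 44.4%, 48.6% and 42.9%. The CDX core was in 3 proteasome promoters (11.1%), 0 of 35 EIF promoters and 3.93% of all. The NRF1 core was in 11.1%, 5.71% and 7.73% of the proteasome, EIF and all promoters, and the antioxidant-response type core in 7.41%, 2.86% and 2.56%. These are counts of letters and not of bound sites, and promoters of the same gene overlap.

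The regions were about as open as other gene starts. Their level (CPM per kb, that is read counts scaled by TMM-adjusted library size and by region length, averaged over 12 libraries) had a median of 37.5 and a range of 13.9 to 105, against a median of 34.3 over 11765 gene starts, from which 2 regions on exons of the introduced genes and 3 that match mitochondrial DNA were left out. The level was at or above that median in 57 of the 100 regions. It was 38.0 at the 64 starts used by 1 gene and 35.3 at the 36 shared starts.

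**Figure D1:**
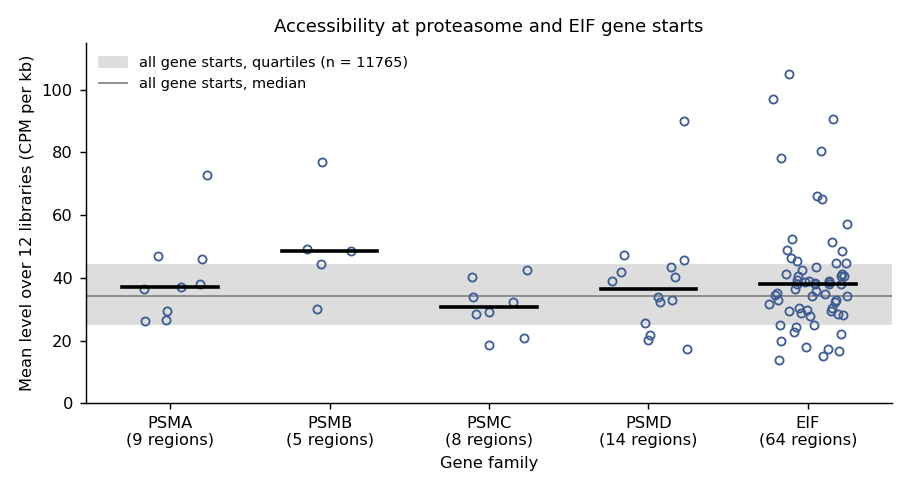
Mean level over 12 libraries (CPM per kb, vertical axis) of each of the 100 regions, as circles by gene family, with black bars at the family medians and the quartiles of 11765 gene starts in grey. The family medians run from 30.6 (PSMC) to 48.5 (PSMB) and most regions lie within or near the grey band.

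In the 20S core, the most open PSMA region was that of PSMA2 (chr7:42932164-42932393, 72.8 CPM per kb), a start shared with MRPL32, and PSMA5 followed with 46.8. The highest PSMB region was centred at -944.5 bp from the PSMB1 start, in an exon of its neighbour TBP (chr6:170554113-170554390, 76.8), and PSMB3 came next (49.2). PSMB5, the chymotrypsin-like subunit, had the lowest of the 5 PSMB regions (chr14:23034885-23035035), at 26.8 ± 11.7 CPM per kb for EV, 21.7 ± 4.69 for EHF, 43.7 ± 11.6 for CDX1 and 27.9 ± 11.5 for EHF+CDX1 cells (SD, n = 3). PSMB5 did not pass the test in any of the 6 comparisons.

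In the 19S cap, the ATPase gene PSMC4 had the highest PSMC region (chr19:39970863-39971181, 42.5 CPM per kb) and PSMC5 the lowest (chr17:63827289-63827484, 18.7). PSMD5, an assembly chaperone of the cap, stood far above the rest of its family with 90.1, followed by PSMD7 with 47.4. PSMD14, the deubiquitinase that removes ubiquitin chains at the cap, had 39.3 ± 1.98 CPM per kb for EV, 45.2 ± 1.98 for EHF, 43.2 ± 9.49 for CDX1 and 46.1 ± 4.3 for EHF+CDX1 cells at the region of its promoter shown, and did not pass the test in any comparison.

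Among initiation factors the range was wider. The 2 highest levels of all 100 regions were at EIF3E (chr8:108443359-108443676, 105 CPM per kb) and EIF3H (chr8:116766270-116766566, 96.9), which encode subunits of the eIF3 scaffold. Both lie at starts shared with a neighbour, EMC2 and UTP23, and 194.8 and 10.6 kb from the canonical start of the EIF gene. EIF2AK3, the endoplasmic reticulum stress kinase PERK that phosphorylates eIF2, followed with 90.6 at its canonical start (chr2:88627507-88627911). EIF3A had 57.1, EIF4E, the cap-binding protein, 45.5, EIF5, the GTPase activator of eIF2, 41.3, EIF4A1, the helicase, 40.6 and EIF4EBP1, a repressor of EIF4E, 39.1. EIF2S1, the phosphorylated subunit of eIF2, had 38.3 at a region upstream of its start, in an exon of ATP6V1D. EIF1, which guards start codon choice, had 34.5, EIF2B5, the catalytic subunit of the eIF2 exchange factor, 30.3 and EIF5A 29.5. Of these last 9 regions 0 passed the test in any comparison.

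**Figure D2:**
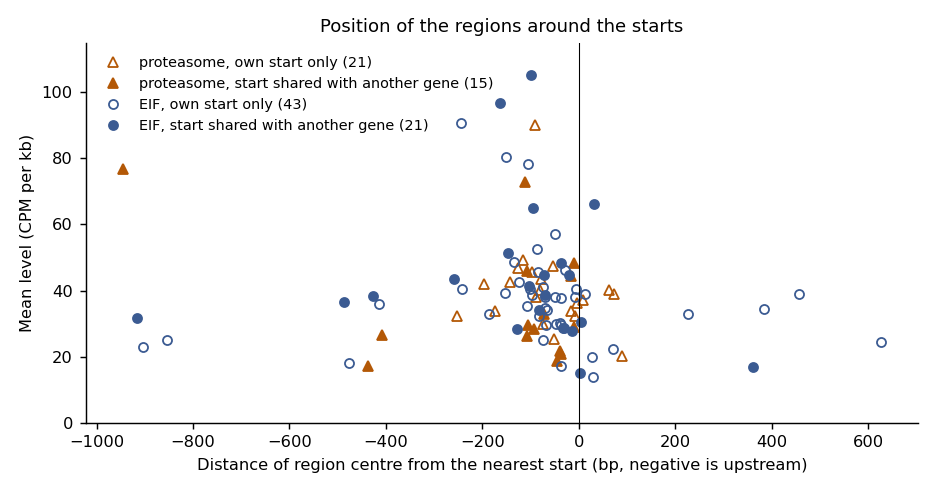
Distance of each region's centre from the nearest start of its gene (bp, horizontal axis, negative upstream) against its mean level (CPM per kb), with triangles for proteasome and circles for EIF genes, filled where another protein-coding gene starts within 1000 bp. Centres cluster around the median of -74 bp, and the filled triangle at -944.5 bp is the PSMB1 region of the TBP start.

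Summed over a family, accessibility was similar in the 4 lines. The 36 proteasome regions held 292, 268 and 232 CPM in EV replicates 1, 2 and 3. They held 334, 280 and 315 CPM in those of EHF, 309, 275 and 302 in those of CDX1, and 322, 250 and 316 in those of EHF+CDX1 cells. The EV range overlapped that of each other line. The means were 264 ± 30.4, 310 ± 27.2, 295 ± 17.8 and 296 ± 39.8 CPM (SD, n = 3), which gives log2 ratios to EV of 0.23 for EHF, 0.16 for CDX1 and 0.17 for EHF+CDX1. The 64 EIF regions held 573, 539 and 523 CPM in EV replicates 1, 2 and 3. They held 621, 521 and 660 CPM in those of EHF, 641, 529 and 595 in those of CDX1, and 652, 553 and 733 in those of EHF+CDX1 cells. Their means were 545 ± 25.4, 601 ± 71.5, 588 ± 56.7 and 646 ± 90.2 CPM, with log2 ratios to EV of 0.14, 0.11 and 0.25, and all ranges overlapped. The ratios of all gene starts to EV were 0.14, 0.06 and 0.14, so that both families moved by amounts close to those of gene starts at large. Under scaling by library size alone the EHF and CDX1 ratios of both families, and of all gene starts, were below 0.

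As a share of the counts at gene starts, the 100 regions took 0.886% to 1.0% for EV, 0.929% to 1.01% for EHF, 0.907% to 1.04% for CDX1 and 0.932% to 1.04% for EHF+CDX1. In the 3 lines given a factor, replicate 2 was the lowest of its group in both family sums. Replicate 2 was also the library with the most counts at gene starts in each of these lines (183721 to 382111), and the part of depth in the sums was not tested.

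**Figure D3:**
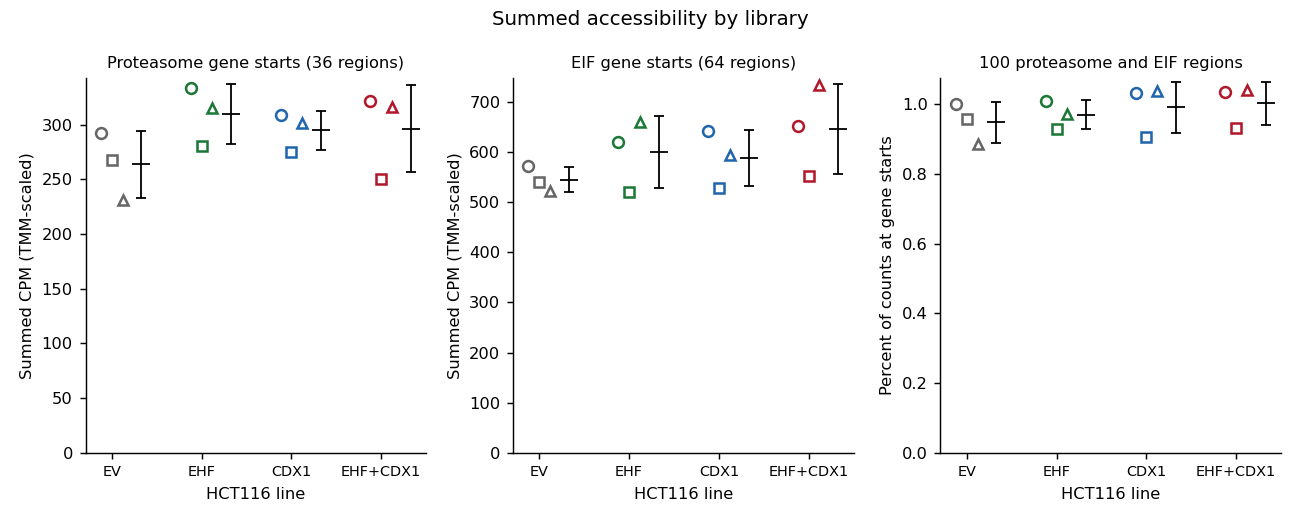
Summed TMM-scaled CPM of the 36 proteasome and 64 EIF regions, and the share of gene-start counts on all 100 regions (percent), for each library, with circles, squares and triangles for replicates 1, 2 and 3 and black bars for the mean and SD (n = 3). The EV libraries overlap those of every other line in all 3 panels. Under scaling by library size alone the mean sums of EHF and CDX1 lie below those of EV, while single libraries overlap.

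Smaller groups of regions did not overlap in a few comparisons, described without a test. All other comparisons made of the TMM-scaled PSMA, PSMB, PSMC, PSMD and EIF1 to EIF5 sums overlapped. With 3 libraries per line, some separations of this kind can arise by chance. PSMA sums were 67.0 to 76.7 CPM in EV and 79.2 to 96.0 in EHF cells, which did not overlap (log2 ratio 0.30). The TMM-scaled sums over all gene starts did not overlap in this comparison either (log2 ratio 0.14). Taken as a share of gene-start counts, the PSMA sums of EHF and EV still did not overlap. PSMB sums were 33.6 to 46.5 CPM in EHF+CDX1 cells, below the 46.6 to 56.7 of EHF and the 47.8 to 74.1 of CDX1 cells, but they overlapped the 44.9 to 54.1 of EV cells. The PSMB sums include the PSMB1 region in an exon of TBP, the most open of the 5. PSMC sums were 47.9 to 55.2 in EHF+CDX1 and 40.2 to 41.5 in CDX1 cells, with 25.6 to 49.0 in EV cells. The regions of EIF5, EIF5A, EIF5A2 and EIF5B, which act at different steps, together held 51.5 to 62.3 CPM in EHF+CDX1 and 36.1 to 50.5 in EV cells. The TMM-scaled sums over the EIF1, EIF2, EIF3 and EIF4 genes overlapped between EV and each other line.

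Other scalings of these groups, chosen after seeing the data, changed some of these overlaps. Under scaling by library size alone all of the separate groups overlapped, with a log2 ratio of -0.28 for PSMA in EHF against EV, where all gene starts were at -0.43, and of 0.17 and 0.10 for PSMB in EHF+CDX1 against EHF and CDX1. Library sizes include 525029 to 1916509 counts on the introduced genes in the EHF and CDX1 libraries. As a share of gene-start counts the same 3 ratios were 0.16, -0.27 and -0.58. On that scale the PSMB sums of EHF+CDX1 and EHF and the EIF5 sums of EHF+CDX1 and EV overlapped, and the PSMB sums of EHF+CDX1 lay below EV without overlap (log2 ratio -0.40). The 4 regions of EIF1, EIF1AD and EIF1B took 0.0598% to 0.0700% of gene-start counts in EV libraries, above the 0.0523% to 0.0592% of EHF, the 0.0365% to 0.0585% of CDX1 and the 0.0393% to 0.0569% of EHF+CDX1 libraries.

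The test asked, region by region, whether accessibility differed between lines. A region is called changed where its adjusted p (edgeR's quasi-likelihood test, Benjamini-Hochberg over the 30154 regions tested, which include all 100) is under 0.05. In EHF against EV and in CDX1 against EV 0 of the 100 regions were called, where 0.00995% and 0% of all regions were. In EHF+CDX1 against EV 1 region was called, where 2.57% of all regions and 1.05% of gene starts were. In EHF+CDX1 against EHF, against CDX1 and in the interaction, which asks whether both factors together departed from the sum of the single changes, 0 were called, where 4.35%, 2.6% and 0.123% of all regions and 1.41%, 0.892% and 0.034% of gene starts were.

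At an unadjusted p under 0.05 by the same edgeR test, the 100 regions gave 3 in EHF against EV, 7 in CDX1 against EV, 11 in EHF+CDX1 against EV, 9 against EHF, 8 against CDX1 and 5 in the interaction. The shares of all regions were 4.96%, 3.81%, 19%, 19.6%, 17.5% and 9.88%. Of the 11 regions against EV, 8 were higher and 3 lower in EHF+CDX1 cells, and the share of gene starts was 10.8%. In the other 5 comparisons, in the order given, the shares of gene starts were 4.14%, 3.09%, 10.2%, 9.97% and 6.12%. The 3 EHF+CDX1 libraries all exceeded the 3 EV libraries at 17 of the 100 regions (14.8% of all regions) and all fell below them at 5 (7.2%). For EHF cells these were 9 (5.98%) and 6 (3.96%), and for CDX1 cells 14 (4.93%) and 4 (3.89%). At gene starts at large, 13.5% and 4.67% of regions did so in EHF+CDX1 cells. The shares there were 8.20% and 2.77% in EHF cells and 6.20% and 3.32% in CDX1 cells.

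The median log2 fold change of the 100 regions against EV was 0.20 for EHF, 0.11 for CDX1 and 0.26 for EHF+CDX1 cells, which share the EV libraries, and that of all gene starts was 0.15, 0.07 and 0.19. In EHF+CDX1 cells, family medians were 0.03 for PSMA, -0.10 for PSMB, 0.29 for PSMC, 0.41 for PSMD and 0.27 for EIF. All 5 PSMB regions had negative values against CDX1 cells (-1.04 to -0.24, median -0.49), and 0 of them passed the test.

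**Figure D4:**
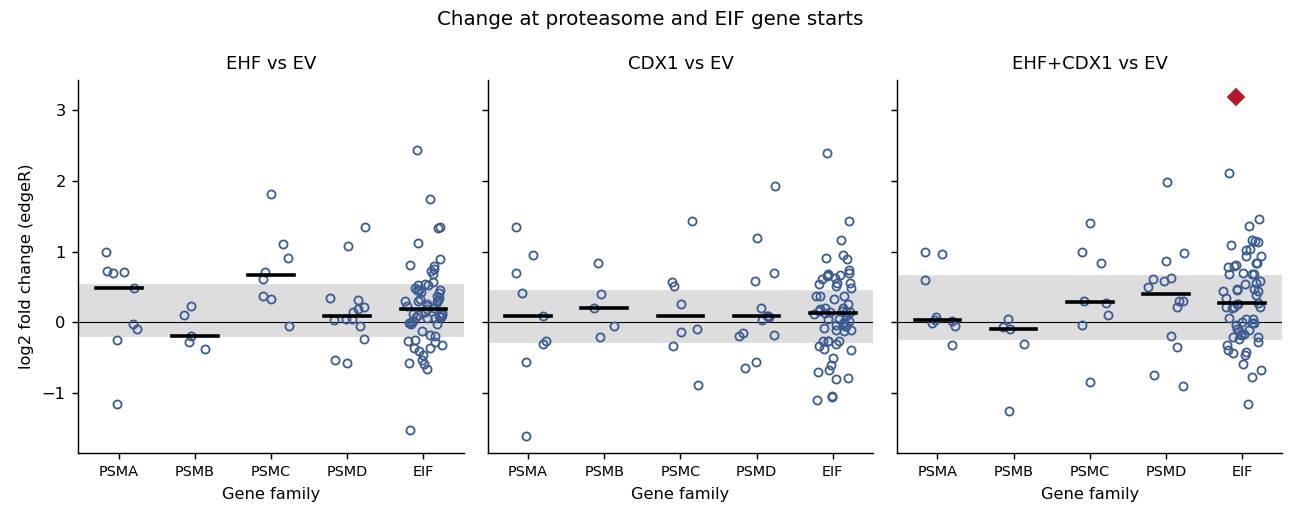
Log2 fold change against EV (edgeR, vertical axis) of each of the 100 regions by family in EHF, CDX1 and EHF+CDX1 cells, with black bars at family medians, the quartiles of all gene starts in grey and a red diamond where the adjusted p is under 0.05. The diamond is the EIF3E region at 3.19, and the family medians lie in or near the grey band.

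The region called in EHF+CDX1 cells lies at chr8:108443908-108444058, with its centre at -487 bp from a start that is annotated for EIF3E, a subunit of eIF3. This start is 195 kb from the canonical EIF3E start, and the region itself is in an intron of EMC2, a subunit of a membrane protein insertase, whose start is also within 1000 bp. It held 2, 1 and 0 counts in EV replicates 1, 2 and 3, 6, 15 and 6 in those of EHF, 8, 11 and 3 in those of CDX1, and 23, 39 and 8 in those of EHF+CDX1 cells. On the CPM scale this was 0.962 ± 1.12, 5.69 ± 0.351, 5.52 ± 2.08 and 9.70 ± 3.59 (SD, n = 3), and the EV libraries lay below all 9 others. The log2 fold change of EHF+CDX1 against EV was 3.19 ± 0.74 (SE, adjusted p = 0.0050 by edgeR). Since EV held 3 counts in all, the ratio of counts per scaled library size, 9.64, had a 95% counting interval of 3.17 to 47.9. The same ratio was 5.86 (1.80 to 30.2) for EHF and 5.60 (1.68 to 29.2) for CDX1 cells, whose adjusted p-values were 0.89 and 1.0. Between EHF+CDX1 and the single lines the difference was 0.75 ± 0.49 (EHF) and 0.80 ± 0.50 (CDX1) on the log2 scale, with adjusted p-values of 0.39 and 0.40. The call was lost without EV replicate 2 (adjusted p = 0.089), with DESeq2 (0.078), with scaling by library size alone (0.33), and without replicate 2 of every group, a setting chosen after seeing the data (0.10). Its log2 fold change was 2.82 to 4.18 over all settings, with 4.18 without EV replicate 1 and 3.28 without EHF+CDX1 replicate 2 (adjusted p = 0.028).

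The other 4 EIF3E regions did not pass. The strongly open region at the shared EMC2 start was at 117 ± 18.0 CPM per kb for EV, 90.3 ± 14.6 for EHF, 111 ± 12.2 for CDX1 and 102 ± 20.3 for EHF+CDX1 cells, with a log2 fold change of EHF+CDX1 to EV of -0.20 ± 0.37. Of the 2 regions at the canonical start, the least open of all 100 (chr8:108248427-108248577, 13.9 CPM per kb) gave 0.78 ± 0.99 and the other -0.31 ± 0.42. Over all 2061 tested regions of chromosome 8 the median log2 fold change was 0.07. With the regions of each gene summed, 0 of 68 genes were called.

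**Figure D5:**
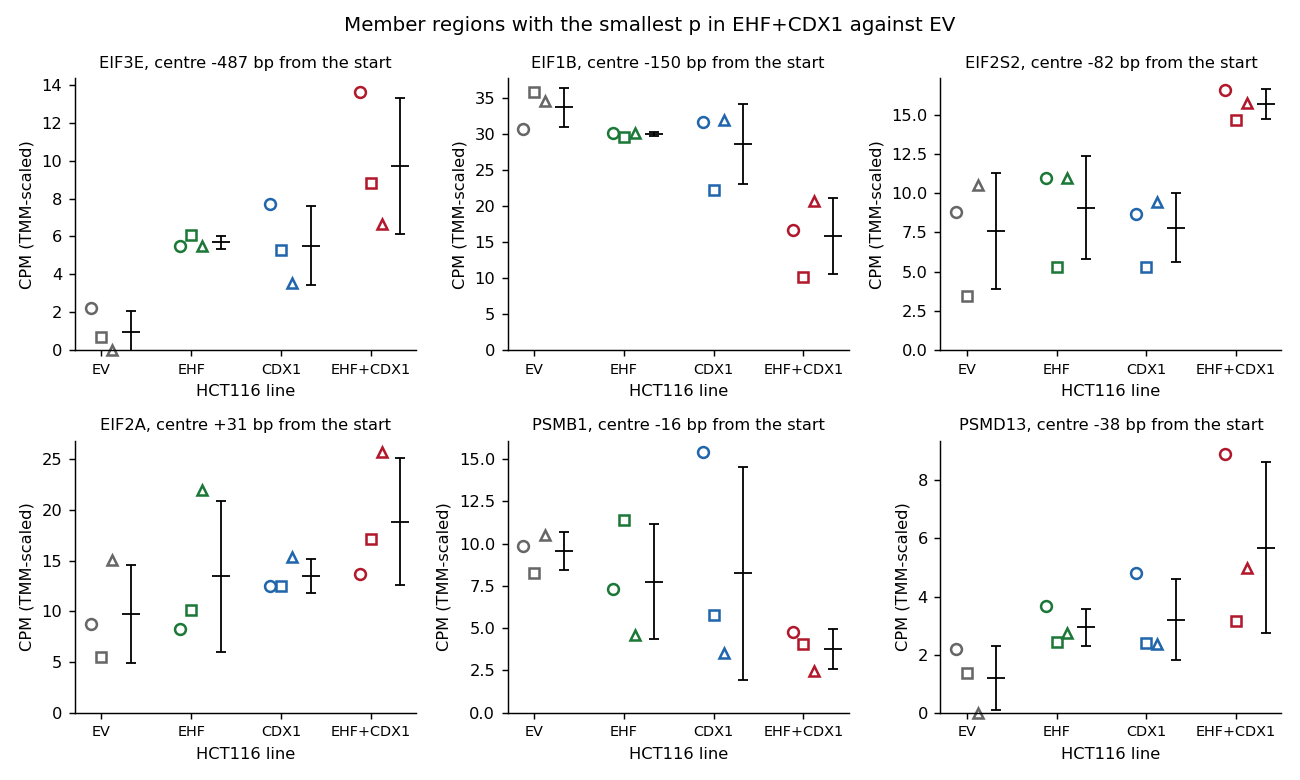
TMM-scaled CPM (vertical axis, each from 0) in every library of the 6 regions with the smallest p in EHF+CDX1 against EV, with circles, squares and triangles for replicates 1, 2 and 3 and black bars for the mean and SD (n = 3). The EIF3E region rises from at most 2.2 in EV to at least 6.64 in EHF+CDX1 cells, and the EIF1B region, which did not pass the threshold, is at 30.7 or more in EV and at 20.8 or less in EHF+CDX1 cells.

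The next 9 regions in EHF+CDX1 against EV did not pass the threshold. EIF1B, a close relative of EIF1, lies at chr3:40309389-40309725 over the start and promoter shown. Its 3 values were 30.7, 35.9 and 34.6 CPM for EV, 30.2, 29.7 and 30.2 for EHF, 31.7, 22.2 and 31.9 for CDX1, and 16.6, 10.2 and 20.8 for EHF+CDX1 cells. All 3 EHF+CDX1 libraries lay below the other 9, with a log2 fold change of -1.15 ± 0.37 against EV (adjusted p = 0.069) and -0.97 ± 0.37 against EHF (adjusted p = 0.10). Among the fits with a single library left out, EIF1B was called against EV without EHF replicate 2 (adjusted p = 0.047) and without EHF+CDX1 replicate 3 (0.0499). Its calls with a replicate block are given in the closing section.

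EIF2S2, the beta subunit of eIF2 (chr20:34112169-34112480, untranslated part of its first exon), showed 8.78, 3.45 and 10.5 CPM for EV, 11, 5.28 and 11 for EHF, 8.66, 5.31 and 9.46 for CDX1, and 16.6, 14.7 and 15.8 for EHF+CDX1 cells. Again the EHF+CDX1 libraries stood clear of the other 9, here above them. The log2 fold change was 1.16 ± 0.45 against EV (adjusted p = 0.14) and 1.07 ± 0.43 against CDX1 (adjusted p = 0.15). EIF2A, which can deliver initiator tRNA without eIF2, had 9.78 ± 4.83 CPM in EV and 18.9 ± 6.22 in EHF+CDX1 cells (1.02 ± 0.42, adjusted p = 0.15), with overlapping libraries. SERP1 also starts within 1000 bp of this EIF2A region.

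Among proteasome genes, the PSMB1 region over its own start (chr6:170553241-170553406) held 9.88, 8.29 and 10.5 CPM in EV and 4.75, 4.06 and 2.49 in EHF+CDX1 cells, with 7.76 ± 3.42 in EHF and 8.24 ± 6.29 in CDX1 cells. EHF+CDX1 lay below EV in every library, with a difference of -1.25 ± 0.52 on the log2 scale (adjusted p = 0.16). TBP also starts within 1000 bp of this region. The other PSMB1 region, at the TBP start, gave -0.10 ± 0.37. PSMD13, a subunit of the lid of the cap (chr11:236853-237003, a start shared with SIRT3), held 2, 2 and 0 counts in EV and 15, 14 and 6 in EHF+CDX1 cells, a count ratio of 3.62 (95% counting interval 1.29 to 14.0) and an adjusted p of 0.16. PSMA6, a core subunit, was at 5.45 ± 0.59 CPM in EV and 11.4 ± 4.1 in EHF+CDX1 cells (1.0 ± 0.50, adjusted p = 0.24), and its 3 EHF+CDX1 libraries all exceeded the 3 EV libraries.

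EIF3K and EIF3H, of the eIF3 complex, and EIF5A2, a relative of EIF5A, complete the 10 smallest p for EHF+CDX1 against EV, with log2 fold changes of 1.46 ± 0.71, 1.14 ± 0.57 and 1.10 ± 0.55 and adjusted p-values of 0.23 to 0.25. The EIF3H region (chr8:116766876-116767047) was higher in every EHF and CDX1 library than in EV, at 4.39, 2.76 and 4.51 CPM for EV, 9.15, 8.94 and 11 for EHF and 7.69, 10.1 and 13.0 for CDX1 cells. It lies next to the open region at the start shared with UTP23, which is not the canonical EIF3H start. Its EHF+CDX1 libraries held 7.72, 3.61 and 16.6 CPM and overlapped EV. It did not pass in either comparison (log2 fold changes of 1.36 ± 0.57 and 1.44 ± 0.57, adjusted p-values of 0.94 and 1.0). The third region by p was at PSMC5 for EHF cells (1.81 ± 0.82, adjusted p = 0.96) and at PSMC2 for CDX1 cells (1.44 ± 0.63, adjusted p = 1.0).

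Against EHF cells, the smallest p in EHF+CDX1 cells was at EIF2B4, the delta subunit of the exchange factor that recharges eIF2, at a start shared with SNX17 (chr2:27370335-27370636). It held 11.9, 9.35 and 13.7 CPM in EHF and 22.6, 24.6 and 19.1 in EHF+CDX1 cells, above all EV (11.7 to 15.4) and CDX1 libraries (12.5 to 16.3). The log2 fold change was 0.97 ± 0.36 (adjusted p = 0.098, and 0.045 with DESeq2 size factors in edgeR). EIF2AK4, the kinase GCN2 that senses uncharged tRNA, was at 8.40 ± 1.58 CPM in EHF and 3.4 ± 0.847 in EHF+CDX1 cells (-1.35 ± 0.54, adjusted p = 0.12). A region at an internal EIF3B start (chr7:2377675-2377825), named after its values were seen, held 42, 13 and 1 counts in EHF+CDX1 cells and at most 4 in every other library, and it was called against EHF in 4 alternative settings. Against CDX1 cells, an EIF1 region centred 384 bp after a start (chr17:41689202-41689436) led with 1.31 ± 0.51 (adjusted p = 0.13). It went from 4.48 ± 3.62 CPM in CDX1 to 10.8 ± 1.60 in EHF+CDX1 cells. The other EIF1 region, upstream of the start, gave 0.69 ± 0.47 (adjusted p = 0.44), and PSMC4 had 0.99 ± 0.40 (adjusted p = 0.16).

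In the interaction the smallest p belonged to a region centred at -408 bp from an alternative start of PSMA1, a core subunit (chr11:14643968-14644118), in an exon of PDE3B. It held 6.59, 5.53 and 4.51 CPM for EV, 1.83, 3.25 and 1.83 for EHF, 2.89, 1.45 and 1.18 for CDX1, and 7.12, 3.16 and 8.31 for EHF+CDX1 cells. The single lines lay below EV in every library while EHF+CDX1 cells overlapped it, and the interaction of 2.78 ± 1.01 (log2) did not pass (adjusted p = 0.27). EIF3H (-1.66 ± 0.73) and EIF1 (1.57 ± 0.71) followed with adjusted p-values of 0.42 and 0.44. The other EIF1 region gave 0.31 ± 0.72 (adjusted p = 0.93).

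Of 26 proteasome and ubiquitin genes outside the families, 22 had 41 regions, and of 21 further genes of initiation and its control, 20 had 32 regions. In each of the 6 comparisons 0 of these regions were called in either direction. For EHF+CDX1 against EV at an unadjusted edgeR p under 0.05, 4 of the 41 were higher and 2 lower, and 3 of the 32 were higher and 0 lower. The shares in both directions together were 19% of all regions and 10.8% of gene starts. ADRM1, a ubiquitin receptor of the cap, had a log2 fold change of 1.01 ± 0.43 (adjusted p = 0.17). Median log2 fold changes were 0.27 and 0.02, against 0.26 for the 100 regions. In these bulk libraries a start that is open in more cells and a start that is more open per cell cannot be told apart.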

How the data were processed

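ATAC-seq was done on 12 libraries of HCT116 cells. The authors mapped reads to hg38 with Subread 2.0.0, kept those that mapped uniquely, called peaks with HOMER 4.7 and counted reads over 1 set of regions with featureCounts 2.0.0, per the labels and methods. The deposited table gives raw counts per region with no normalisation. Duplicate removal and read shifting are not given in the sources used here, and deposited log2 CPM values were not used here. Amplified reads are not independent molecules, so an interval or floor covers counting error alone.

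Groups were taken from the sample titles. The genes and lists were chosen with earlier results of these data known. Regions were placed against GENCODE 44, with coordinates as deposited. Regions that reached a CPM of 3 in any library (30154) were tested in R 4.3.3 with edgeR 4.0.16 (TMM, robust quasi-likelihood F-test, two-sided, 1 fit over 12 libraries with a coefficient per group), since the methods name no test for regions. The script was tested on simulated data. A standard error is the log2 fold change divided by the root of F. Family sums are sums of TMM-scaled CPM and were not tested. Matches to mitochondrial DNA were found with blastn (at least 40 bp at 80% identity). Alternatives were DESeq2 1.42.0 and its size factors, limma 3.58.1 voom with quantile normalisation, library size alone, other filters and region sets, sums per gene, a replicate block and leaving out each library. The text names called regions, the 10 smallest p in EHF+CDX1 against EV and 3 in each other comparison, the 2 highest and the lowest level of each family, and 17 genes picked by role, of which 5 had no region.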

Additional observations from a re-analysis of the deposited data

How the results depend on the processing

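The number of regions called in EHF+CDX1 against EV was 1, and it became 0 with scaling by library size alone, with DESeq2, with regions summed per gene, and without replicate 2 of every group (chosen after seeing the data), and ranged from 0 to 2 when single libraries were left out. It was 0 without EV replicate 2, and 2 without EHF replicate 2 or EHF+CDX1 replicate 3, where EIF1B was added. In EHF+CDX1 against EHF the count of 0 became 1 with DESeq2 size factors (EIF2B4), without the robust option and without replicate 2 of every group (EIF3B in both), and was 0 to 1 over single libraries left out, with 1 without EHF+CDX1 replicate 3 (EIF3B). With the replicate block in edgeR the count in EHF+CDX1 against EV was 3 (EIF3E, EIF1B and EIF2S2, adjusted p of 0.00069, 0.0028 and 0.046). It was 3 against EHF (EIF1B, EIF2B4 and EIF3B, adjusted p of 0.011, 0.031 and 0.0030) and 2 against CDX1 (EIF1B and EIF3B, adjusted p of 0.044 and 0.040). The numbers were not treated as a pairing, since the labels do not say that libraries of the same number belong together. In the sample titles, though, the running S numbers go through all the groups once for each replicate number. Deviations of libraries of the same number in different groups correlated by -0.096 to 0.31 (other numbers -0.18 to 0.12). Among EV, EHF and CDX1 the same-number values were 0.069 to 0.31, and those below 0 all involved EHF+CDX1 libraries. Of 12 libraries, 10 correlated best with one of their own number, and a batch by number was not tested. Over all regions, calls in EHF+CDX1 against EV rose from 776 to 1711 with the block. The block changed no other call among the 100 regions, the other 3 comparisons had a count of 0 under every setting, and 0 of the regions named by their p changed direction in that comparison. Under library size alone, 20 of the 100 regions were higher in EHF than in EV (69 with TMM) and 15 in CDX1 than in EV (60 with TMM). The log2 ratios of the family sums to EV moved by more than the spread between libraries in 2 settings. With library size alone they were -0.35 (EHF) and -0.54 (CDX1) for proteasome genes and -0.46 and -0.59 for EIF genes, where all gene starts were at -0.43 and -0.59. As a share of all gene-start counts, which include reads of the introduced genes and of mitochondrial DNA, the ratios in EHF, CDX1 and EHF+CDX1 cells were -0.61, -1.65 and -0.77 for proteasome genes and -0.72, -1.71 and -0.68 for EIF genes. With those regions left out of the total, a setting chosen after seeing the data, they were 0.10, 0.10 and 0.03, and 0.00, 0.05 and 0.11. With single libraries left out they stayed between 0.04 and 0.35. At a median of 4 to 27 counts per region, small changes at single starts are not detectable at this depth.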
